A study of Mus musculus with 19 samples.

Results

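Small nucleolar RNA (snoRNA) genes and the genes that contain them were examined for SOX3 occupancy in mouse testis at postnatal day 7. The members were the 1507 genes of biotype snoRNA on chromosomes 1 to 19, X and Y in the GENCODE M21 annotation of GRCm38 (mm10), of 55413 annotated genes in all, and the 308 protein-coding or lncRNA genes that contain at least 1 of them on the same strand, called host genes here. Where several genes contained a snoRNA gene (22 members), it was assigned to a protein-coding one over a lncRNA and then to the shortest. A snoRNA gene counted as occupied when a peak overlapped it by at least 1 bp, and a host gene when a peak overlapped the 2 kb on either side of its annotated start. Of the members, 152 carry a symbol of a named snoRNA series (98 Snord, 42 Snora, 2 Scarna and 10 Rnu3 records at 5 loci), and the other 1355 mostly carry provisional Gm symbols. A host contained 664 of the snoRNA genes, and 843 had none.

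The study profiled the transcription factors ZBTB16, SALL4 and SOX3 in postnatal mouse testis. The SOX3 data used here are 2 ChIP-seq libraries and 2 ChIP-nexus libraries, a variant of ChIP with exonuclease trimming, all from unsorted testis chromatin at P7, with 2 SOX3 antibodies named for each. The tubules of several mice were pooled for each library according to the methods of the study, which describes SOX3 as specific to undifferentiated spermatogonia within the testis; the lists themselves do not give the cells of origin of a peak. The replicates held 58351 and 38832 peaks, the lists themselves hold no read totals, and the precision of every value is limited by having 2 replicates of a single condition. No control condition was part of this comparison, so that values are given per replicate with their SD and no p-value. Peak lists do not measure expression, and neither snoRNA levels nor markers of the tissue could be read from them.

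snoRNAs guide the chemical modification or the cleavage of ribosomal RNA in the nucleolus. Box C/D snoRNAs (Snord symbols) direct methylation of ribose and carry a C box near the 5′ end and a D box near the 3′ end, whereas box H/ACA snoRNAs (Snora symbols) direct pseudouridylation and end in an ACA box; Scarna symbols denote related RNAs of Cajal bodies. In mammals most of them lie in introns and are released from the spliced host transcript, so that they share the host's promoter. A few, such as U3 (Rnu3 symbols), U8 (Snord118) and U13 (Snord13), are transcribed from promoters of their own. Many host genes encode ribosomal proteins or translation factors, and others are noncoding RNAs named small nucleolar RNA host genes (Snhg).

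The sequences that carry the results were read from the RefSeq copy of GRCm38. The lncRNA gene 2410006H16Rik holds 3 box C/D snoRNA genes, of which those nearest the start, Snord49b (chr11:62603079-62603150, plus strand) and Snord49a (chr11:62603450-62603521, plus strand), lay under a peak, and the farthest, Snord65 (chr11:62604515-62604586, plus strand), did not. They are shown as an example of guide RNAs of the same kind on either side of a peak edge, with the C box TGATGA and the last CTGA of the D box in capitals.
Snord49b: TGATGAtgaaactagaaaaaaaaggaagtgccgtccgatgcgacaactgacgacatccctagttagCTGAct
Snord49a: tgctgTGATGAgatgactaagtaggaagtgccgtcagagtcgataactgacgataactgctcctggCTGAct
Snord65: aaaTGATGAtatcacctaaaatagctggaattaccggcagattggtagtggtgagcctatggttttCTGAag
Snora24 (chr3:123507937-123508066, minus strand), the single snoRNA gene of Snhg8, is a box H/ACA counterpart under a peak, with its ACA in capitals.
Snora24: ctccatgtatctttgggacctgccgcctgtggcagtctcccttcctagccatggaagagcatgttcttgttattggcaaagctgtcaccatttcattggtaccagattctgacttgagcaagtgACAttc

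The 300 bp at the start of the host 2410006H16Rik (chr11:62602627-62602926, plus strand, 250 bp before to 50 bp after the start) are shown because this window lay under the peak that reached Snord49a, with each of its 31 CpG dinucleotides in capitals.
2410006H16Rik: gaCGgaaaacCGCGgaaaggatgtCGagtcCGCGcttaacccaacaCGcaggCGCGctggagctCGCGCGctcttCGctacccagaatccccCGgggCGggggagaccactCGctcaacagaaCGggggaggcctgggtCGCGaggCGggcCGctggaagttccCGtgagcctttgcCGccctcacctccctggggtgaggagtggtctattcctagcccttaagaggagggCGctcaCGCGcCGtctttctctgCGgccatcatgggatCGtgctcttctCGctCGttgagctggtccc

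The corresponding windows of 4 snoRNA genes with strong peaks outside host promoters are Rnu3a (chr10:40258217-40258516, plus strand), Rnu3b1 (chr11:87442987-87443286, plus strand), Snord118 (chr11:69073177-69073476, plus strand) and Snord13 (chr8:31149918-31150217, minus strand). Capitals mark every match, on either strand, to the octamer ATGCAAAT, the TATA element TATAAA, the SOX core motif AACAAT, the CCAAT box, the GC box GGGCGG, the ETS core CCGGAA, the YY1 motif AAGATGG or the E-box CACGTG.
Rnu3a: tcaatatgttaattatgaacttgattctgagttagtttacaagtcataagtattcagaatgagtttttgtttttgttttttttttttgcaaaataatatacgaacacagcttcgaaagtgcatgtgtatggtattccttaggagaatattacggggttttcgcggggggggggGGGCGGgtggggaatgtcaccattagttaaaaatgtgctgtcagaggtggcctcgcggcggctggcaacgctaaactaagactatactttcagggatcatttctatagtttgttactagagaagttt
Rnu3b1: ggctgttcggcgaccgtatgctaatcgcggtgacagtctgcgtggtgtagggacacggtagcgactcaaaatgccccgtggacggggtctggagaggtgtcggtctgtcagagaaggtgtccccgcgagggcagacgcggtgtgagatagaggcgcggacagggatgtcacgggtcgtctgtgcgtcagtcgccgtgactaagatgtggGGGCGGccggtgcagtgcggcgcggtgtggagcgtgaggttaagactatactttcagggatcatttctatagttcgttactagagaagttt
Snord118: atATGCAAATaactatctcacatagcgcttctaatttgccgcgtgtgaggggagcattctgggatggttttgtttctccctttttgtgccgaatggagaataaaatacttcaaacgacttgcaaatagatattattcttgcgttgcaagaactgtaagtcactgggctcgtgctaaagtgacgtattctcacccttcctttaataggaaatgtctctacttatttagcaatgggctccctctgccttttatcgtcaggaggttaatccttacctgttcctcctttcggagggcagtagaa
Snord13: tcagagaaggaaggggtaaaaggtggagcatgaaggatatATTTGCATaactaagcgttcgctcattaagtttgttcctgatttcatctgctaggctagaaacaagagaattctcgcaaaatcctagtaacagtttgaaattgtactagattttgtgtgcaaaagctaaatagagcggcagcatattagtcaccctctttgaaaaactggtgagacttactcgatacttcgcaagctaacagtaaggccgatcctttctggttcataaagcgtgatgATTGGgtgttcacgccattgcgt
The only matches were a GC box in each U3 gene, an octamer in Snord118 and Snord13 and a CCAAT after the start of Snord13. An octamer was found in the same window of 1.64% of all 32093 protein-coding and lncRNA genes, a GC box in 34.8%, CCAAT in 38.8% and AACAAT in 11.1%. None of the 4 windows held AACAAT, which says only that these letters were not in these windows.

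The snoRNA genes were not occupied more often than other short genes when all were counted, and the share was higher in the named series than in the other symbols. A peak lay over 107 of 1507 (7.10%) in replicate 1, 75 (4.98%) in replicate 2 and 60 (3.98%) in both. Among 7317 other genes no longer than the longest snoRNA gene (325 bp), the shares were 7.37%, 4.93% and 4%. Of the 152 named genes, 55 were occupied in replicate 1 and 44 in replicate 2 (32.6% ± 5.12, SD, n = 2). Of the 1355 others, 52 and 31 were (3.06% ± 1.10). Within the named series 28 and 21 of 98 Snord genes were occupied (28.6% and 21.4%), the Snora share was 35.7% ± 6.73 and all 10 Rnu3 records were occupied in both replicates.

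The members without a peak included large imprinted clusters. Snhg14, the long noncoding RNA of the Prader-Willi region, alone contained 208 of the members, none with a peak in either replicate. All 65 members on the X chromosome were also without a peak. Over all members, 8.10% had a peak in at least 1 replicate, and whether the share on the X chromosome is lower was not tested. Of the X-linked hosts, Rpl10 and Rpl39 had promoter peaks in both replicates and Htr2c had none. The letters of the C and D boxes were found near the ends of 69.4% of Snord and 0% of Snora genes, and an ACA near the 3′ end of 85.7% of Snora genes. In the other symbols 17.4% had the C and D box and 18.5% an ACA at that place. Among other symbols, occupancy was 3.60% ± 0.899 with C and D boxes, 3.98% ± 2.25 with an ACA and 2.65% ± 0.815 with neither, differences of about the size of the spread between replicates. Identical copies were frequent, as 183 members shared their whole sequence with another member, and reads from such copies cannot be placed with certainty.

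Nearly every occupied snoRNA gene with a host had an occupied host promoter. A host contained 82 occupied members in replicate 1 and 57 in replicate 2, and the host promoter had a peak for 80 and 56 of them. Of all hosts, counted once each, 77.6% and 73.7% had a promoter peak. A peak over a member within 2 kb of the host start counts for both by the rules used, so much of this overlap was fixed in advance. A single peak spanned both the snoRNA gene and the 2 kb window of the host start for 65 of the 82 and 39 of the 57. The named members with a peak in both replicates, U3 left out, lay at a median of 731 bp from the host start (range 225 to 15963 bp, n = 25), and those with a peak in neither lay at 5180 bp (n = 91).

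The map of 11 host genes shows the peaks and the snoRNA genes along each host. In 2410006H16Rik one peak, with a q score (the negative log10 of the false discovery rate, multiplied by 10) of 774 in replicate 1 and 307 in replicate 2, covered Snord49b and Snord49a, whose middles lie 238 and 609 bp from the start. Snord65, at 1674 bp, was outside it in both. Snhg12, which holds 3 named H/ACA genes and Snord99, had a peak (246 and 129) over Snora16a at 909 bp that stopped before Snora44 at 1382 bp, Snora61 and Snord99. Gas5, a growth arrest-associated lncRNA with 10 snoRNA records, had a promoter peak of 602 and 265 over the 2 genes nearest the start, Gm26224 at 1012 bp and Gm22489 at 1459 bp. Its other 8 records, among them Snord78, Snord80 and Snord47, were not covered.

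**Figure D1:**
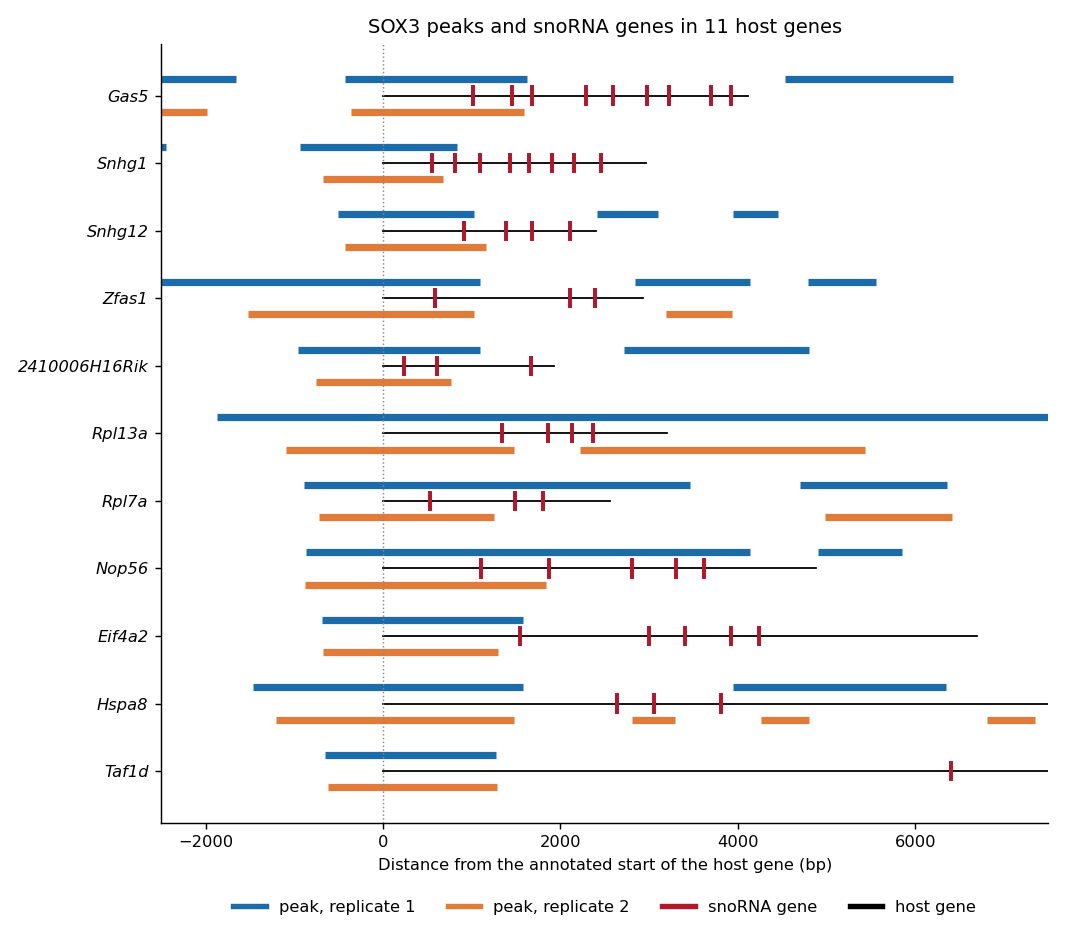
SOX3 peaks of replicate 1 (blue) and replicate 2 (orange) around 11 host genes (black lines), with snoRNA genes in red, by distance in bp from the annotated host start and cropped at both sides. In 2410006H16Rik, Snhg12 and Gas5 the peak at the start covers the nearest snoRNA genes and stops before the others, and in Hspa8 a separate peak of replicate 2 lies over Snord14d.

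Peaks of replicate 1 reached further than those of replicate 2, and several members lay under a promoter peak in replicate 1 alone. Nop56, which encodes a core protein of box C/D particles, had a peak of 773 in replicate 1 that covered Snord110 (1110 bp), Gm24451 (1873 bp) and Snord57 (3622 bp), and one of 238 in replicate 2 that covered Snord110 and Gm24451 but not Snord57. In Eif4a2, a translation initiation helicase, Snord2 (1543 bp) lay at the edge of the replicate 1 peak (1039) and outside that of replicate 2 (401). In Rpl13a all 4 snoRNA genes lay under 1 peak of replicate 1 (660). In replicate 2 separate peaks covered Snord32a (322) and Snord35a (241), and Snord33 and Snord34 lay between them.

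A few members lay under a peak separate from that of the host promoter. Hspa8, the constitutive HSP70 chaperone, had promoter peaks of 573 and 173, and its Snord14d lay under a separate peak of replicate 2 only (33.9, close to the lists' threshold of 30). Snord95 in Rack1, which encodes a ribosomal scaffold protein, lay under a separate peak of 46.5 in replicate 1 only, and so did Snord83b in Rpl3 (109, at 13323 bp) and Snord42a in Rpl23a (304, at 2253 bp). Gm22077, also in Rpl3, lay under a peak of 630 in replicate 1 only, where the host promoter had 228. Snord66 in Eif4g1 lay under a peak in both replicates (62.5 and 31.2), 15963 bp from a host start that had no promoter peak in either. Other annotated transcript starts were near these members. The nearest lay 404 bp from Snord14d, within Snord95, 1890 bp from Snord83b, 267 bp from Snord42a, 138 bp from Gm22077 and 149 bp from Snord66. Several H/ACA genes lay close to a start. Snora24 in Snhg8 (621 and 197), Snora73a in Rcc1 (349 and 137) and Snora78 in Snhg9 (785 and 380) lay under their host's promoter peak in both replicates. The Snhg9 peak was the same as that of the adjacent host Rps2 and also covered Snora64. In contrast Snhg5 (543 and 257), Snhg6 (443 and 201), Ncl (687 and 322) and Tpt1 (699 and 327) had strong promoter peaks with no peak over their named snoRNA genes, which lay between 1096 bp (Snord50b in Snhg5) and 8165 bp (Snora75 in Ncl) from the start.

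Order along the host was examined in hosts with a promoter peak and at least 2 snoRNA loci, U3 left out. Of 62 such hosts in replicate 1, 8 had all snoRNA genes under a peak, 34 had none and 20 had some. In 16 of those 20 every covered gene was nearer the start than every uncovered one, the exceptions being Ppan, Rack1, 2410002F23Rik and Rpl23a. Replicate 2 gave 64 hosts, with all genes covered in 2, none in 42 and some in 20, and the same order in 16 of 20. Its exceptions were Hspa8, 2410002F23Rik, Rpl13a and Snhg17. The hosts were selected for a promoter peak, which favours coverage from the start, and the count expected for a random order was not computed.

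The mean share of occupied named genes was 100% within 500 bp of the host start, 75% at 500 to 1000 bp, 26.9% at 1000 to 2000 bp, 19.5% at 2000 to 5000 bp and 8.33% at 5000 to 20000 bp, and it was 21.1% over 20000 bp, where the 8 occupied of 38 records were those of Rnu3b. In the other symbols it was higher at 500 to 1000 bp (80.8%, n = 13) than within 500 bp (2 of 8 genes in each replicate), and 17.2% at 1000 to 2000 bp. At equal distance the named genes were covered more often than the corresponding positions of other genes. For each snoRNA gene with a host, the position at the same distance from the start was examined in other genes of the same biotype and promoter CpG ratio bin. Over the 135 named genes with a host, U3 left out, 24.4% ± 5.24 were occupied, and the position was in 14.7% of the other genes, a difference of 9.76 ± 0.977 points. The difference was 23.4 ± 8.37 points at 500 to 1000 bp (n = 14), 11.4 ± 9.80 at 1000 to 2000 bp (n = 26) and 13.6 ± 0.562 at 2000 to 5000 bp (n = 41). For the 352 other symbols with enough matched genes it was 1.05 ± 0.871 points (7.24% against 6.20%), close to the spread between the replicates, but at 500 to 1000 bp it was 25.1 ± 4.96 points (n = 13), about as large as in the named genes. The 169 members of very distant position had fewer than 20 matched genes and were left out.

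**Figure D2:**
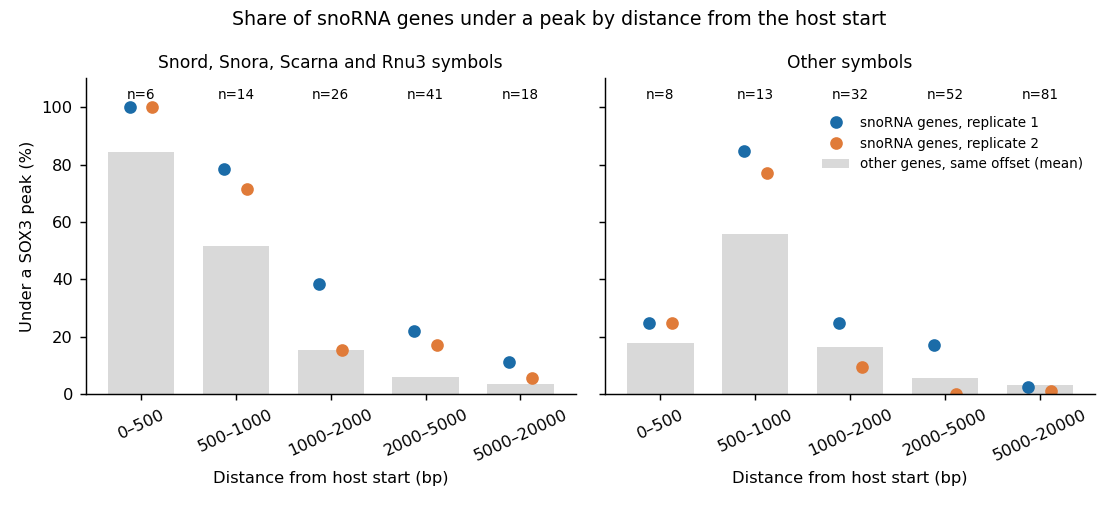
Percent of snoRNA genes under a SOX3 peak in replicate 1 (blue) and replicate 2 (orange) by distance from the host start in bp, for named symbols (left) and other symbols (right), with n above. Grey bars give the mean percent, over both replicates, of other genes covered at the same distance; at 500 to 1000 bp both dots of both panels lie above the bar, and both dots at 5000 to 20000 bp are lower than those at 500 to 1000 bp in each panel. Members over 20000 bp, U3 included, are not drawn.

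This difference was larger in ribosomal protein hosts than in the other host classes, beyond the SD over replicates. Ribosomal protein hosts were recognised by a symbol pattern and lncRNA hosts by the annotated biotype. The pattern missed Rps3a1, which was counted with other protein-coding hosts, and the chaperonin gene Cct6a was counted as lncRNA. Their named members Snord73a and Snora15 had no peak in either replicate. Named snoRNA genes in ribosomal protein hosts so defined were occupied in 48.4% ± 18.2 (n = 31 genes), with 22.9% at the same positions of other genes, a difference of 25.5 ± 11.7 points. The difference was 5.19 ± 2.08 points for those in other protein-coding hosts (n = 56) and 4.96 ± 2.36 for those in lncRNA hosts (n = 48); the difference between classes was not tested. Promoter peaks that covered the host start extended a median of 1113 bp downstream in hosts of Snora and Snord genes and 965 bp in other genes of equal CpG ratio in replicate 1, and 841 and 788 bp in replicate 2. Ribosomal protein hosts are short (median length 3221 bp), and the part of peaks of neighbouring genes in the difference was not tested.

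Host promoters were occupied in most cases. A promoter peak was found at 239 of 308 hosts (77.6%) in replicate 1, 227 (73.7%) in replicate 2 and 220 (71.4%) in both, where 54.8%, 47% and 44.2% of all 32093 protein-coding and lncRNA genes had one. Hosts had more CpG-rich promoters, with a median CpG ratio (observed over expected in the 1000 bp around the start) of 0.737, against 0.548 in other protein-coding and 0.242 in other lncRNA genes. When the other genes were weighted to the biotype and CpG ratio of the hosts, their share was 77.1% in replicate 1 and 70.4% in replicate 2. The hosts lay 0.453 and 3.32 points above it (1.88 ± 2.02), a difference smaller than the spread between replicates.

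The 83 hosts of Snora and Snord genes stood higher. Of these, 78 (94.0%) and 77 (92.8%) had a promoter peak, against 89.5% and 83.9% of other genes of equal CpG ratio, a difference of 4.50 and 8.85 points (6.68 ± 3.08). The 225 hosts of other symbols only were occupied in 69.1% ± 3.46. The split is one of symbols and not of RNA class. Well-known hosts such as Eif4a1 and Rpl7a, whose members carry Gm symbols in this annotation, are among the 225. In the protein-coding genes with a CpG ratio from 0.7 upward, the 14, 24 and 13 hosts of Snora and Snord genes in the 3 bins all had a peak in both replicates, whereas in the bin from 0.6 to 0.7 it was 4 of 5 (80%), with 86.3% of other genes. The means of other genes in the bins from 0.7 upward ran from 92.9% to 97.8%.

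**Figure D3:**
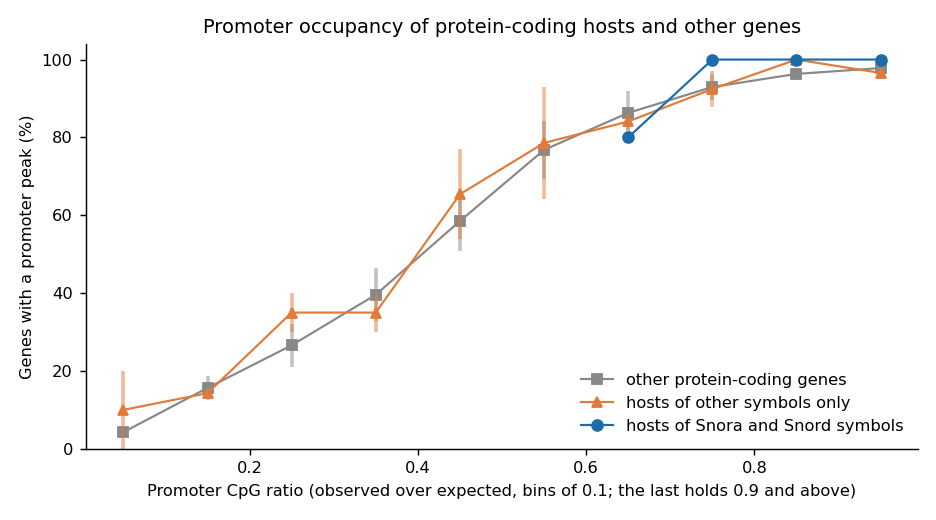
Percent of protein-coding genes with a SOX3 peak within 2 kb of the start (points, mean of 2 replicates; vertical bars, the range of the replicates) by promoter CpG ratio, for hosts of Snora and Snord genes, hosts of other symbols only and other genes; bins with fewer than 5 genes are not drawn. Occupancy of other genes rises with CpG ratio from bin to bin. Hosts of other symbols roughly follow it, level at 35% from 0.2 to 0.4 and at 96.6% in the last bin after 100%. Hosts of Snora and Snord genes are drawn from 0.6 upward only, at 80% (n = 5) and then 100%.

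By class, all 29 ribosomal protein hosts recognised by symbol had a promoter peak in both replicates, as did 54 of 57 ribosomal protein genes that are no hosts. Rps3a1 (309 and 154), counted with other protein-coding hosts, and Cct6a (355 and 140), counted as lncRNA, also had one in both. Of the 20 lncRNA hosts of Snora and Snord genes, 18 were occupied in each replicate, and over all 63 lncRNA hosts the share was 46.8% ± 1.12, where 33.7% and 26.3% of other lncRNA genes had a peak in the 2 replicates. Other protein-coding hosts were occupied in 80.8% ± 4.26 (n = 216) and other protein-coding genes in 60.1% ± 5.67. Hosts with 2 or more snoRNA genes (n = 73) were occupied in 89.0% ± 1.94, and those with 1 (n = 235) in 71.5% ± 4.21. These class shares are not adjusted for CpG ratio.

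Peaks at host promoters also had higher scores. The median q score of the strongest promoter peak was 270 in replicate 1 and 109 in replicate 2 in hosts, and 204 and 89.0 in other genes with a peak, weighted to the same CpG ratio, a ratio of 1.27 ± 0.0676. In hosts of Snora and Snord genes it was 357 and 154, with a ratio of 1.59 ± 0.00449. On the log2 scale of ChIP over input the difference was 0.20 ± 0.03 for all hosts and 0.29 ± 0.02 for hosts of Snora and Snord genes. The medians of all peaks of the lists were 41.4 and 39.5.

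The strongest host promoters included several genes of transcription and translation. Gtf2a1, which encodes a subunit of general transcription factor TFIIA, had scores of 1494 and 520, Eif4a2 1039 and 401, and Eif4g2, a translation regulator, 1028 and 414. Eif4a1, the paralogue of Eif4a2, had 835 and 374. Among noncoding hosts Snhg9 (785 and 380, shared with Rps2), 2410006H16Rik (774 and 307) and Zfas1 (719 and 303) led, and Prrc2a (719 and 339) and Tpt1 (699 and 327) completed the 10 with the best mean rank.

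Among the 10 hosts with the most snoRNA genes, 8 had a promoter peak in both replicates, and the other 2, Rian and Snhg14, had the lowest CpG ratios. Gas5 (602 and 265), Snhg1 (425 and 148), Taf1d (518 and 156), Nop56 (773 and 238) and Rpl4 (310 and 98.8) had CpG ratios of 0.754 to 0.959. Eif4a2 (1039 and 401) had a ratio of 1.01, Snhg12 (246 and 129) of 0.707 and Tex14 (408 and 169) of 0.681. The scores did not rank by the ratio, as Snhg1, at 0.959, scored lower than Gas5 at 0.809. Rian, an imprinted lncRNA with 12 snoRNA records and a CpG ratio of 0.0676, had no peak in replicate 1 and one of 31.2 in replicate 2, and Snhg14, with a CpG ratio of 0.190, had none. The 10 most CpG-rich hosts without a peak in either replicate had CpG ratios from 0.511 to 0.912; they included Hs3st4, a heparan sulfate sulfotransferase, the ion channel gene Kcnh7, Dpp10 and the serotonin receptor gene Htr2c on the X chromosome.

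**Figure D4:**
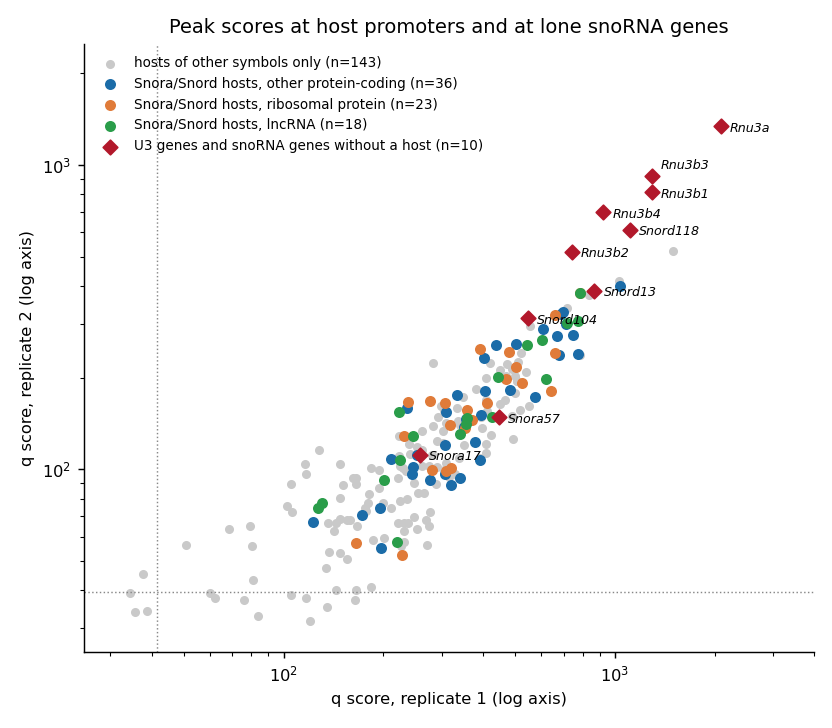
q scores in replicate 1 and replicate 2 (both log axes) of the strongest promoter peak of hosts occupied in both replicates, by host class, and of peaks over U3 genes and named snoRNA genes without a host (red diamonds, labelled). Dotted lines are the medians of all peaks; the U3 genes, Snord118 and Snord13 lie at the upper right, among or above the strongest host promoters.

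The highest scores over any member were found at snoRNA genes outside host promoters. Rnu3a encodes U3, which serves in cleavage of the ribosomal RNA precursor, and had a peak of 2087 in replicate 1 and 1341 in replicate 2, rank 4 of all peaks in both lists. Snord118 (U8), needed for processing of the large subunit RNAs, had 1113 and 613 (ranks 26 and 25), and Snord13, a guide for acetylation of the small subunit RNA, had 867 and 386 (rank 64 in both). Snord104 had 547 and 313. The lists' 99th percentiles were 505 and 224, so that all of these lay above them in both replicates.

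The 4 Rnu3b genes lie inside Tex14, a germ cell gene of the intercellular bridge, between 15646 and 43777 bp from the nearest start. Their peaks scored 740 to 1291 in replicate 1 and 518 to 917 in replicate 2, higher than the peak at the Tex14 promoter itself (408 and 169). In replicate 1 a single peak covered Rnu3b1 and Rnu3b3, and in replicate 2 each copy had its own. The copies are identical over 482 bp, from 266 bp before the start to the end of the gene, where each read was placed on 1 matching position at random by the authors' aligner, so that the scores of the copies are not independent.

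Of all 843 members without a host in GENCODE, 25 were occupied in replicate 1, 18 in replicate 2 and 11 in both (1.30%). Among other symbols it was 4 of 834 in both (0.48%). Only 9 named records had no host, of which 7 were occupied in both replicates, 2 of them records of Rnu3a, and the 2 Snora43 records in neither. Besides Rnu3a, Snord118, Snord13 and Snord104 they were Snora57 (447 and 148) and Snora17 (258 and 111). Gm24000 (485 and 232), Gm22711 and Gm23596 were the members of other symbols without a host that were occupied in both. Most lay near the start of another gene, since the middle of Rnu3a was 465 bp from the start of Gtf3c6, that of Snord13 399 bp from Tti2, that of Snora57 241 bp from 1810009A15Rik and that of Snora17 1116 bp from Snhg7os. A peak over them cannot be told apart from one of that neighbouring promoter. Snord118 lay 2688 bp from the start of Tmem107 and Snord104 13176 bp from that of Ern1, the nearest in GENCODE. RefSeq places Snord104 within the lncRNA Gm36220 and Snora17 within Snhg7, so that the lack of a host depends on the annotation.

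Far from any annotated start, snoRNA genes were seldom occupied. Of 1206 members more than 2 kb from every start, 28 were occupied in replicate 1, 23 in replicate 2 and 13 in both (2.11% ± 0.293). The 13 were the 8 records of the 4 Rnu3b genes, Snord118, Snord104, Gm22711 (2 records under the Snord104 peak) and Gm23596 (34.9 and 54.2). With a host and U3 left out, 397 members remained, of which 2 and 3 were occupied and none in both. The exact Clopper-Pearson upper limit for none in both was 0.925%, but it holds only if members are independent. Members that share a host or a sequence are not, as in Snhg14 with its 208 members, so this limit is too narrow. Peaks covered 0.557% ± 0.111 of the bases of these members and 1.51% ± 0.743 of the intron bases of all hosts at the same remove from starts.

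ChIP-nexus peaks near snoRNA genes were found at U3 genes only, in 1 of the 2 replicates. Of 110 ChIP-nexus peaks in replicate 1, 5 lay within 1 kb of a snoRNA gene, and these were at Rnu3a and the 4 Rnu3b genes, each inside a ChIP-seq peak. Their fold enrichment was 7.68 at Rnu3a and 21.6 to 24.1 at the Rnu3b genes. The study states far fewer unique reads for the ChIP-nexus than for the ChIP-seq libraries. Replicate 2 held 18 ChIP-nexus peaks, none of them near a snoRNA gene, so that this result rests on replicate 1. The Rnu3b values again come from identical copies.

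The wider snoRNA pathway was examined with a list of 25 genes for assembly factors and particle proteins. A promoter peak was present in both replicates for 23 of them, where the share of all genes was 44.2%, and no CpG adjustment was made for this list. The box C/D proteins were each occupied, with 299 and 154 for the methyltransferase gene Fbl, 773 and 238 for Nop56, 244 and 96.2 for Nop58 and 299 and 112 for Snu13. So were the H/ACA proteins, with scores of 102 and 75.4 for the pseudouridine synthase gene Dkc1, 276 and 76.0 for Nop10, 297 and 121 for Gar1 and 192 and 80.1 for Nhp2. The nucleolar genes Npm1 (586 and 272) and Ncl (687 and 322), with Nop56, had the highest scores of the list, and Nop56, Nop58, Dkc1 and Ncl are themselves hosts. Ruvbl2 had a peak (311) in replicate 1 only and Coil, the Cajal body protein gene (58.4), in replicate 2 only. Of 47 well-known hosts and related genes listed by name, 41 had a member assigned to them here, of which 38 were occupied in both replicates, Rian in 1, and Snhg14 and Htr2c in neither. The other 6 had no member assigned, and of these Snhg3, Snhg20, Cfdp1 and Nfatc3 were occupied in both replicates and Mirg and Snrpn in neither.

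Promoters of Snora and Snord hosts differed from those of other CpG-rich genes in some sequence features that the choice of members did not use. A pyrimidine start, meaning a C followed by at least 5 pyrimidines beginning within 5 bp of an annotated RefSeq start, is typical of translation genes and was present in 26.9% of the 67 Snora and Snord hosts with a RefSeq promoter entry and in 12.3% of 8367 other genes with a CpG ratio of 0.6 or more. By class it was found in 8 of 17 lncRNA hosts of Snora and Snord genes (47.1%) and in 5 of 34 of their other protein-coding hosts (14.7%). Of ribosomal protein hosts of any member, 6 of 19 had it (31.6%). In the window from 250 bp before to 50 bp after the GENCODE start, TATAAA was found in 19.3% of Snora and Snord hosts and 6.06% of other CpG-rich genes, GGGCGG in 55.4% and 69.7%, CACGTG in 16.9% and 10.9%, CCGGAA in 30.1% and 28.1% and AACAAT in 2.41% and 5.35%. These hosts were taken at any CpG ratio, and 74 of the 83 had a ratio of 0.6 or more. Between all hosts and all protein-coding and lncRNA genes, TATAAA was found in 14.6% and 13.0%. For GGGCGG the order was the opposite there (45.1% and 34.8%), so the contrasts depend on the sets compared. A start of another gene on the opposite strand within 1 kb was found for 27.7% of Snora and Snord hosts and 34.3% of other CpG-rich genes. These are descriptions of letters and positions, and none was compared with the presence of a peak.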

How the data were processed

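The members, gene lists and rules were chosen with earlier results of these data known. Reads of SOX3 ChIP-seq from P7 testis were aligned by the authors to mm10 with Novoalign, with 1 randomly chosen position for reads matching several, and Picard took out duplicates. The authors deposited 1 peak list per replicate, with a score (the negative log10 of the false discovery rate times 10, above 30) and a log2 ratio of ChIP over input for each peak; the column meanings were inferred from the values and the stated threshold. The deposited ChIP-nexus lists, made with MACS2 2.1.1 per the labels, give a score, a fold enrichment and significance as −log10 of p and q. Read totals are given by the study but not by the deposited lists, and were not used here; the interval given covers counting error only.

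Overlaps were computed in Python 3.11.15 with pandas 2.3.3, and pysam 0.24.0 read the sequences. The counts of members with a peak were the same with bedtools 2.31.1 (107 and 75), and the functions were tested on simulated data. Genes, biotypes and starts came from GENCODE M21 on GRCm38, with RefSeq as an alternative. Other genes were weighted to the hosts by 10 bins of CpG ratio and by biotype. A position at the same distance in other genes needed at least 20 genes. Genes were named by rule: gene lists of well-known hosts, snoRNA genes and assembly factors, and the 10 hosts with the most snoRNA genes, the 10 with the best mean rank of the promoter score, the 10 most CpG-rich without a peak, and the 10 best ranked snoRNA genes far from starts or without a host; Snord49b, Snord49a, Snord65 and the other members of the mapped hosts were chosen after their values were seen. Of 19 samples in the labels, the files of 4 were used here. With 2 replicates of 1 group, no test between groups was possible; the study describes them as independent biological replicates. Alternatives were other thresholds, windows, annotations and member sets.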

Additional observations from a re-analysis of the deposited data

How the results depend on the processing

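Over both replicates no result changed direction, and shares and counts have no sign that could change. The difference from genes of equal CpG ratio did change sign in replicate 1 under some alternatives, as given below. The occupied share of all snoRNA genes (6.04%) ranged from 4.98 to 7.10% when 1 replicate was left out, and was 32.6% for the named symbols alone. The share of hosts (75.6%) ranged from 73.7 to 77.6% without 1 replicate, and was 66.9% above a score of 60, 78.4% with every transcript start and 93.4% for Snora and Snord hosts. The difference from genes of equal CpG ratio (1.88 points) ranged from 0.453 to 3.32 points without 1 replicate. It was 7.74 points above a score of 60, 11.3 with bins of GC content and 6.68 for Snora and Snord hosts. For the latter it was 7.998 points with every transcript start, 9.61 with RefSeq, 4.49 without ribosomal protein genes and 17.1 above a score of 60. In replicate 1 it was −1.06 points with RefSeq and −0.359 points without ribosomal protein genes over all hosts. The ratio of median scores (1.27) ranged from 1.22 to 1.32 without 1 replicate, and the median log2 ratio of ChIP over input, a separate measure, differed by 0.20. The share far from starts (2.11%) ranged from 1.91 to 2.32% without 1 replicate, and was 1.04% above a score of 60 and 1.46% without U3 genes. The share of members without a host (2.55%) ranged from 2.14 to 2.97% without 1 replicate, and was 1.25% above a score of 60, 1.53% with RefSeq and 3.68% for a peak within 500 bp. The cause of these shifts was not tested, beyond the smaller peak lists above a score of 60. Of 52 values under alternatives, 34 moved by less than the spread between replicates. Outside the ChIP-nexus counts, values without 1 replicate fall among the 34 by arithmetic, because leaving out 1 of 2 replicates shifts a mean by less than their SD. The tally is therefore no measure of robustness for them.

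ChIP-nexus peaks at snoRNA genes numbered 5 without replicate 2 and 0 without replicate 1. With the replicate block, in which each ChIP-nexus list met only the ChIP-seq peaks of its own replicate number, the count was 5. The numbers share no stated animal or day, and the remaining shares come from no test that could be paired. The alternatives on U3 genes, on Snhg14, on records counted once and the 4 combinations for Snora and Snord hosts were chosen after seeing the data, as was the comparison at equal distance.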
